A study of Mus musculus with 3 samples.

Results

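Caveolae are flask-shaped pits of the plasma membrane, and the genes described here are Cav1, Cav2, Cavin1, Cavin2, Mfsd2a and Plvap, the caveola genes and the endothelial suppressor of caveolar transport. They were taken by symbol from the gene list of the single-cell data and are 6 of 32285 measured genes. The 3 libraries came from the retinas of C57BL/6JRj mice of 3 ages, called Young at 3 months, Adult at 12 and Old at 23, with no treatment or altered allele named. Retinas were digested, the vessel pellet was digested again, and CD31-positive cells were enriched on magnetic beads. The 4 retinas of 2 mice were pooled per age, the sex of the mice was not given in the sources used here, and each age is therefore 1 library with no replicate. A difference between ages cannot be told apart from a difference between those pools, so it is given with its counting error only and no test.

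A caveola is built by caveolins, which insert into the membrane as oligomers, and by cavins, soluble proteins that coat the caveolin scaffold. Caveolin-1 is the main scaffold outside striated muscle, and caveolin-2 is its partner. Cavin-1 is needed for caveolae to form, while cavin-2 shapes them. In most vessels endothelial caveolae carry plasma proteins across the wall by transcytosis, but in brain and retina this route is held down, and MFSD2A, a transporter of lysophosphatidylcholine lipids, is the best known suppressor. PLVAP forms the diaphragm of caveolae and fenestrae, and it disappears from vessels that acquire a barrier.

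On mm10, Cav2 (ENSMUSG00000000058) lies at chr6:17281185-17289115 and Cav1 (ENSMUSG00000007655) at chr6:17306335-17341452, both on the plus strand, with 17.2 kb between them. Cavin1 (ENSMUSG00000004044) is at chr11:100956733-100970887 on the minus strand, Cavin2 (ENSMUSG00000045954) at chr1:51289126-51302960 on the plus strand, Mfsd2a (ENSMUSG00000028655) at chr4:122946850-122961188 on the minus strand and Plvap (ENSMUSG00000034845) at chr8:71497765-71511752 on the minus strand, as the GENCODE M21 annotation gives whole genes. An antisense gene, Gm15581, spans Cav1 and Cav2, and another, 9330175M20Rik, spans Cavin2. Gm15581 had no UMI in any class (a UMI, unique molecular identifier, marks 1 captured RNA molecule), and 9330175M20Rik had 2, in cells outside the vascular and glial classes. The 3′ end of Plvap shares 1819 bases with Gtpbp3 on the opposite strand, and the strand setting of the counting was not given in the sources used here. Plvap is for that reason read beside Gtpbp3 below.

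Promoters were found for 5 of the 6 members in RefSeq (GRCm38.p6), each 300 bases long. Cavin1 is not shown, since its window lies inside the annotated gene, 270 bases from its start. Those of Cav1 (chr6:17306085-17306384, plus), Cav2 (chr6:17280935-17281234, plus), Cavin2 (chr1:51288876-51289175, plus) and Mfsd2a (chr4:122961139-122961438, minus) run from 250 before to 50 after the gene start and are shown because their levels followed each other in 2 pairs across cell classes, Cav1 with Cav2 and Cavin2 with Mfsd2a. Capitals mark GGGCGG (a GC box), CCGGAA (an ETS core) and CTTTGA (a TCF/LEF core) on either strand.
Cav1: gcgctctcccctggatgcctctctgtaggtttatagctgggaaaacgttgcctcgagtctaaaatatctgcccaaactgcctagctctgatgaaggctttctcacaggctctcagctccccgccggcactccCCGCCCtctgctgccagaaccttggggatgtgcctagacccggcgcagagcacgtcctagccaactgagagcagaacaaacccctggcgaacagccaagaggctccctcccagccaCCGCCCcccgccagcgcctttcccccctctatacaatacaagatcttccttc
Cav2: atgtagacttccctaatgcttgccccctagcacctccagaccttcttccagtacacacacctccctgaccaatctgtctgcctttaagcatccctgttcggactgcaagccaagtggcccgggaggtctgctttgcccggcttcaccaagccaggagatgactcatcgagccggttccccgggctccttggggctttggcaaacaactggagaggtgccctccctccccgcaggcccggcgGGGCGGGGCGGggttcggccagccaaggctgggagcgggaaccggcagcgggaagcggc
Cavin2: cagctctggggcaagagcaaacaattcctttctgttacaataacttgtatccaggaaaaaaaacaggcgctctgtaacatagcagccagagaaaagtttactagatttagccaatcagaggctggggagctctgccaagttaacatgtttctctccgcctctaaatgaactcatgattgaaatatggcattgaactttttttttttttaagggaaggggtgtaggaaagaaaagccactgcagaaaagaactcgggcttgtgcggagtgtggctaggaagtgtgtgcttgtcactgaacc
Mfsd2a: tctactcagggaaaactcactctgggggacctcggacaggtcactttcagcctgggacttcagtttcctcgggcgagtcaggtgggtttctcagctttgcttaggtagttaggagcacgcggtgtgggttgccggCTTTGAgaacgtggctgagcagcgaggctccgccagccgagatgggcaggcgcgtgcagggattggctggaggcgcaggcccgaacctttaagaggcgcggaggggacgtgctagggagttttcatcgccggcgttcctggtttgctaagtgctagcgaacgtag
The Cav1 and Cav2 windows held 2 GC boxes each, those of Cav2 overlapping by a base, and 35.9% of all 27025 promoters held at least 1. The Mfsd2a window held a single CTTTGA, a motif in 16.2% of promoters, and no window held CCGGAA, which was in 15.2%. CpG counts were 13 for Cav1, 16 for Cav2, 22 for Mfsd2a and 4 for Cavin2, against a median of 7 over all promoters. Fewer CpG than in the window were found in 61.5% of promoters for Cav1, 66.5% for Cav2, 76.7% for Mfsd2a and 31.9% for Cavin2. Both caveolin windows thus lay above the median, while of the other pair only the Mfsd2a window did. These matches describe letters, not binding.

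After quality limits 5360 cells were kept, with 1706, 1957 and 1697 in the Young, Adult and Old libraries and median depths between 5964 and 6355.5 UMIs; 4 barcodes were shared between libraries. Cells were clustered without the members and the gene lists used here, and clusters were named from markers. The groups used are arterial endothelial cells (50, 65 and 80 cells in Young, Adult and Old), other endothelial cells (394, 361 and 324), pericytes (170, 126 and 103), smooth muscle cells (38, 39 and 37), Müller glia, the radial glia of the retina (182, 214 and 206), and rods (166, 322 and 236), neurons given as a comparison class for free RNA. Rods had more Cav1 and Cav2 (15.3 and 12.0 CPM over all libraries) than cones (1.81 and 0), bipolar cells (1.6 and 1.92) and amacrine cells (0 and 5.78), and they held 80.3 to 158 CPM of the Müller glia marker Rlbp1. Their level is therefore not one shared by all neurons. All 12 general endothelial markers were detected in both endothelial groups of every library, and all 8 Müller glia markers in Müller glia. The clusters were named from these same markers, so this describes the classes and is no separate check. Droplets with markers of both endothelial cells and pericytes were kept apart (618, and 162 more with arterial markers). So were 65 with endothelial and erythroid markers and 237 endothelial cells of low depth. These are many beside the 195 arterial and 1079 other endothelial cells used. The 618 mixed droplets made up 14.3%, 9.66% and 10.9% of the Young, Adult and Old libraries. Levels are UMIs per 1000000 UMIs of a class (CPM); reads come from transcript 3′ ends, so CPM is not divided by gene length and compares genes per molecule. Intervals are exact 95% Poisson or binomial intervals, and they cover counting error only.

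The caveolins were highest in Müller glia, not in endothelium. Cav1 measured 365, 418 and 474 CPM in Müller glia of the Young, Adult and Old libraries. It measured 204, 202 and 194 CPM in arterial endothelial cells and 134, 165 and 168 CPM in other endothelial cells. Every Müller value thus lay above every endothelial value, and the ratio of Müller glia to other endothelial cells was 2.70 as a geometric mean (log2 1.43 ± 0.08, SD over 3 libraries). Smooth muscle cells had 202, 203 and 192 CPM of Cav1, a range that overlapped the arterial one, so the order of those neighbours is not set. Pericytes had 40.1, 48.2 and 88.2 CPM. Rods were lowest with 8.34, 9.03 and 31.0 CPM.

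Cav2 kept nearly the same order with smaller differences. Müller glia had 235, 270 and 283 CPM, arterial endothelial cells 224, 208 and 189 CPM and other endothelial cells 181, 190 and 203 CPM. The Müller values lay above the endothelial ones in each library, by a factor of 1.37 over other endothelial cells (log2 0.45 ± 0.07). Smooth muscle cells had 107, 170 and 131 CPM and pericytes 90.1, 100 and 96.2 CPM, against 6.02 to 18.0 in rods. The arterial and other endothelial ranges overlapped for Cav2.

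Cavin1 had a different order, with smooth muscle first. Smooth muscle cells had 1323, 974 and 1292 CPM of Cavin1, which codes for the coat protein that caveolae cannot form without. Other endothelial cells had 377, 385 and 388 CPM, arterial endothelial cells 420, 388 and 415 CPM and pericytes 366, 425 and 509 CPM. The pericyte range overlapped both endothelial ranges, which met at 388 CPM with the arterial one above. Smooth muscle stood 3.09 times above other endothelial cells (log2 1.63 ± 0.25). Müller glia had only 32.4, 29.3 and 35.0 CPM of Cavin1, 11.9 times below other endothelial cells (log2 -3.57 ± 0.13), though above the 3.01 to 8.34 CPM of rods.

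Among the vascular and glial classes Cavin2 was highest in endothelium by far; values in other cell types are given at the end. It measured 637, 673 and 723 CPM in arterial endothelial cells and 584, 637 and 623 CPM in other endothelial cells. In pericytes it was at 21.5, 42.6 and 34.1 CPM, and in smooth muscle cells the 3 libraries held 0, 6 and 2 UMIs. Müller glia held 4, 0 and 0 UMIs of Cavin2, at most 2.4 CPM, while their Cav1 sums were 609, 812 and 731 UMIs. Where no UMI was found in Müller glia, the limit of 3 counts stood at 1.54 CPM in Adult and 1.94 CPM in Old.

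Müller glia therefore held caveolin RNA with little cavin RNA. Caveolin UMIs were 94.5%, 95.9% and 95.6% of all UMIs of Cav1, Cav2, Cavin1 and Cavin2 in Müller glia of the 3 libraries. The same share was 25.8% ± 1.05 in other endothelial cells, 27.3% ± 1.91 in arterial endothelial cells, 24.9% ± 0.669 in pericytes and 22.1% ± 4.60 in smooth muscle cells (SD over the 3 libraries). At an equal depth of 2000 UMIs per cell, 51.5% of 536 Müller glia had a Cav1 UMI, against 1.94% of rods, and 5.43% of those 276 Cav1-positive cells also had a Cavin1 UMI. In smooth muscle cells at that depth 28 of the 30 Cav1-positive cells had a Cavin1 UMI, and in other endothelial cells 60.7% of 224 did. Among all cells at that depth, with or without Cav1, 5.6% of Müller glia and 87.7% of smooth muscle cells had a Cavin1 UMI. In other endothelial cells the share among all cells was lower than the 60.7% of the Cav1-positive ones. The shares among Cav1-positive cells thus largely restate the Cavin1 level of each class. The unthinned shares of Müller glia with a Cav1 UMI were 73.6%, 80.4% and 73.3% at median depths of 6912 to 9467.5 UMIs.

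**Figure D1:**
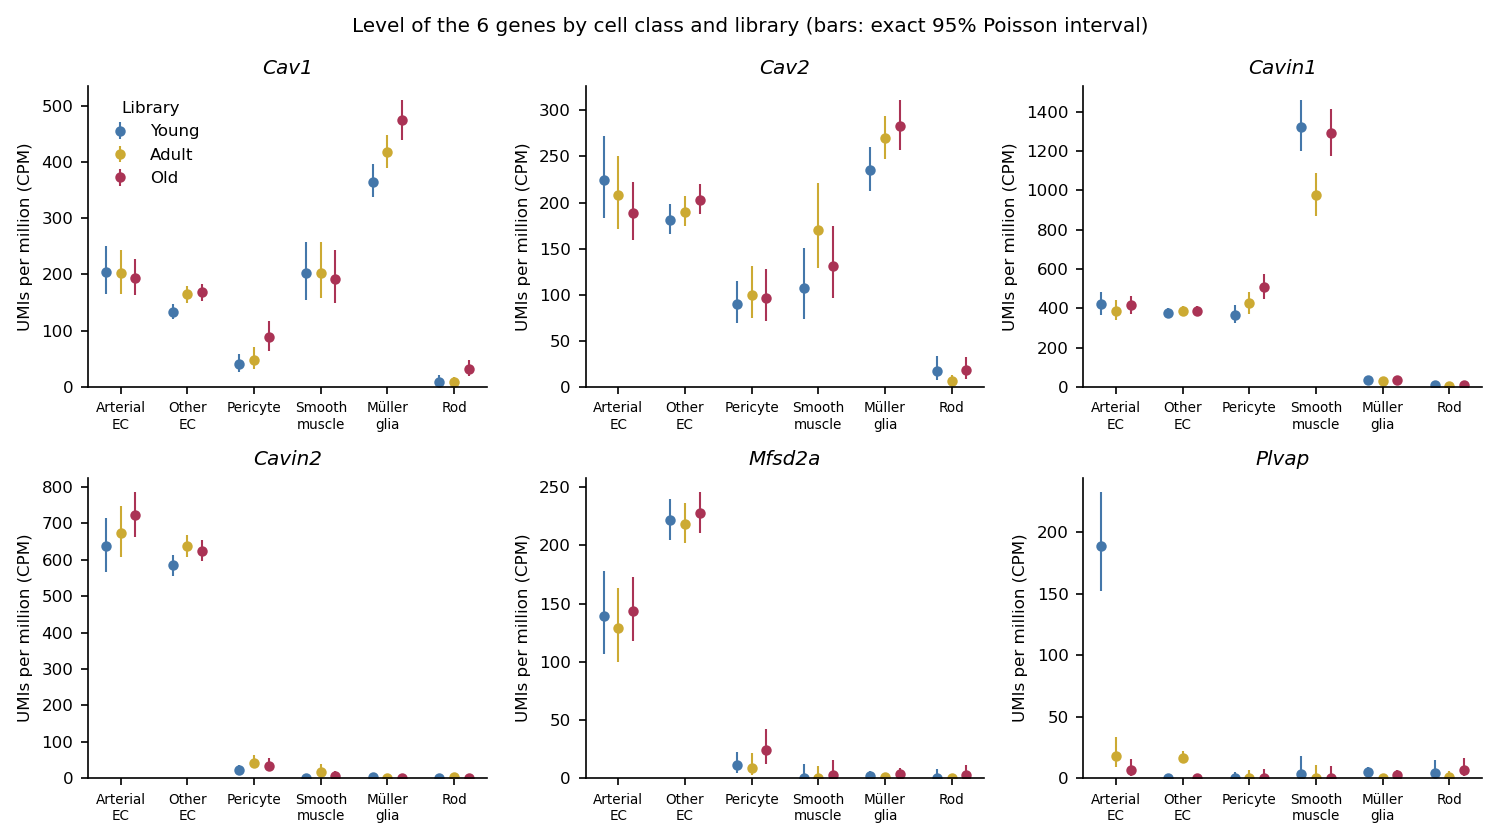
CPM (UMIs per 1000000 UMIs of the class) of each gene on the y axis by cell class on the x axis (EC, endothelial cells), with a point for each of the Young, Adult and Old libraries and bars for the exact 95% Poisson interval. Cav1 and Cav2 peak in Müller glia, Cavin1 in smooth muscle at 974 to 1323 CPM, and Cavin2 and Mfsd2a in the endothelial classes; the single high Plvap point is the Young arterial class.

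The Müller glia came from 2 clusters, and both held caveolin RNA with little cavin RNA. The caveolin share was 95.5% ± 0.768 in the larger and 92.7% ± 0.481 in the smaller. The larger had 435 ± 59.8 CPM of Cav1 and the smaller 275 ± 32.1 CPM, with Cavin1 at 32.8 ± 3.37 and 27.7 ± 2.61 CPM (mean ± SD of 3 libraries). The clusters differed more in Cav2, with 283 ± 32.6 CPM in the larger and 80.6 ± 36.8 CPM in the smaller, a log2 difference of -1.94 ± 0.93. The mean of the smaller lay below those of arterial (207) and other endothelial cells (191), smooth muscle (136) and pericytes (95.5 CPM). High Cav2 was thus a trait of the larger cluster only. The smaller cluster was also the shallower, with a median of 3456.5 against 10079.5 UMIs per cell.

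Genes of the wider caveola machinery, a list of 20 that holds no member, did not all follow the cavins. Cavin3, which codes for a further coat protein, had 532 ± 33.2 CPM in smooth muscle, 263 ± 8.14 in arterial and 180 ± 27.4 in other endothelial cells. Müller glia had 35.5 ± 9.23 CPM and pericytes 61.5 ± 30.5, and these 2 ranges overlapped (25.3 to 43.2 and 27.2 to 85.3). Ehd2, whose ATPase product sits at the caveola neck, had 221 ± 12.8 CPM in arterial endothelial cells, 124 ± 15.1 in other endothelial cells, 176 ± 21.4 in pericytes and 203 ± 39.0 in smooth muscle, and 7.45 ± 1.15 CPM in Müller glia. Pacsin2, a membrane-bending protein, was at 13.2 ± 4.52 CPM in Müller glia and at 133 ± 6.19 CPM in rods. Its means were 52.1 CPM in arterial and 36.8 in other endothelial cells, 78.4 in pericytes and 99.6 in smooth muscle. Other listed genes were higher in Müller glia than in arterial and other endothelial cells, though not than in all mural cells. Pacsin3, of the same family as Pacsin2, had 52.6 ± 10.0 CPM against 3.73 and 3.5, and Flot1, a flotillin gene, 69.5 ± 9.85 against 31.1 and 38.4. Src, a kinase gene, had 42.8 ± 9.50 against 2.83 and 10.6, and Ehd3 30.5 ± 3.23 against 23.6 and 17.8. In pericytes and smooth muscle Pacsin3 had 78.8 and 34.7 CPM, Flot1 38.4 and 60.5, Src 44.0 and 17.1, and Ehd3 118 and 64.5. Cav3 and Cavin4, the muscle forms, had class means of at most 0.2 and 2.33 CPM in the 5 vascular and glial classes.

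**Figure D2:**
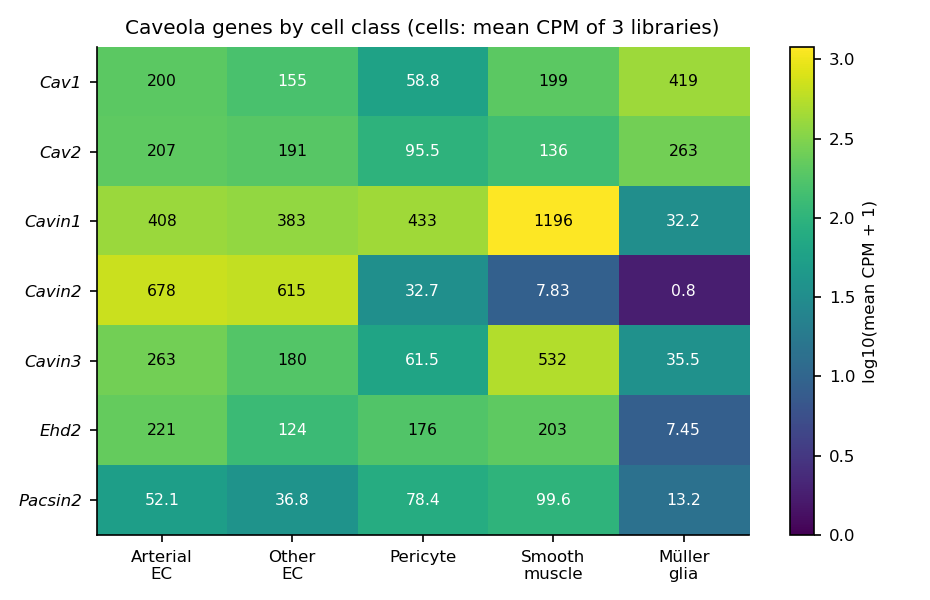
Mean CPM over the 3 libraries (number in each cell; colour, log10 of mean CPM + 1) of 7 caveola genes in rows and 5 cell classes in columns (EC, endothelial cells). In the Müller glia column both caveolins are high, at 419 and 263, while Cavin1, Cavin2, Cavin3 and Ehd2 lie between 0.8 and 35.5.

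Mfsd2a was endothelial, and lower in arterial cells. It measured 222, 218 and 228 CPM in other endothelial cells and 139, 129 and 144 CPM in arterial endothelial cells. The ranges did not overlap, and the arterial level was 0.616 of the other level (log2 -0.70 ± 0.05, lower in 3 of 3 libraries). Pericytes had 11.4, 9.27 and 24.1 CPM, Müller glia 2.4, 1.03 and 3.89 CPM, and rods 0, 0 and 3.26 CPM. At 2000 UMIs per cell 33.4% of other endothelial cells and 18.0% of arterial ones had an Mfsd2a UMI, against 0.430% of rods; unthinned, the shares were 66.6%, 39.0% and 0.276%. Mfsd2a was the member that passed 1.5-fold in the same direction in all 3 libraries between the arterial and other endothelial classes, 1 of 5 members with enough UMIs, where 5.52% of 6647 genes did so. The droplets that mixed endothelial and pericyte markers did not show this difference: Mfsd2a in the arterial ones was 0.988 (0.820 to 1.18), 1.03 (0.861 to 1.23) and 0.898 (0.724 to 1.10) of the others in the 3 libraries (log2 -0.04 ± 0.10).

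The other members differed less between arterial and other endothelial cells. For Cav1 the ratio of arterial to other endothelial CPM was 1.53 (95% interval 1.21 to 1.92) in the Young library. The Adult library gave 1.23 (0.989 to 1.52) and the Old 1.16 (0.955 to 1.39), with a mean log2 of 0.37 ± 0.21. The arterial value was the higher in each library, but only the Young interval excludes 1. Cav2 gave a mean log2 of 0.11 ± 0.20, Cavin1 0.09 ± 0.07 and Cavin2 0.14 ± 0.07. With Cav2 the sign was not the same in all libraries, and for Cavin1 the difference was close to its spread. In the mixed droplets the arterial ones were higher in Cav1 (1.61 times, log2 0.68 ± 0.19) and in Cavin1 (1.53 times, log2 0.62 ± 0.04), each in 3 of 3 libraries. These droplets hold pericyte RNA too, and its part was not tested.

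A finer clustering set apart 116 of the other endothelial cells (42, 31 and 43 in Young, Adult and Old) led by Cyp2e1 and Slc38a5, an amino acid transporter gene, which met 4 of 6 venous and all 8 capillary markers; they are called Slc38a5-led here. The remaining 963 are called capillary-marked, although the finer clustering put 29 of them with arterial and 7 with low-depth endothelial cells. The Slc38a5-led cells were lower in Mfsd2a, with 139, 93.9 and 128 CPM against 243, 238 and 257 CPM in the capillary-marked cells. They were higher in Cavin1, with 557, 522 and 496 CPM against 332, 364 and 356 CPM, and in Cav1, with 197, 274 and 219 CPM against 118, 148 and 153 CPM. None of these 3 pairs of ranges overlapped. The mean log2 ratios were -1.05 ± 0.27 for Mfsd2a, 0.58 ± 0.14 for Cavin1 and 0.72 ± 0.19 for Cav1, while Cav2 (0.17 ± 0.08) and Cavin2 (0.08 ± 0.01) hardly differed. Measured against the capillary-marked cells, arterial cells had a log2 ratio of -0.84 ± 0.04 for Mfsd2a, 0.53 ± 0.23 for Cav1 and 0.22 ± 0.12 for Cavin1. Capillary-marked cells thus had the highest CPM of Mfsd2a and the lowest of Cav1 and Cavin1 among the 3 endothelial subsets. For Cavin1 the gap to arterial cells was small, and the Adult ratio of 1.07 (0.914 to 1.24) has an interval that includes 1. The Slc38a5-led cells were deeper than the others, with a median of 12553 UMIs per cell, and their summed pericyte markers were lower, at 1239 to 1504 CPM against 1616 to 2388 CPM in the capillary-marked cells. These subsets come from clustering the same cells, so the values are a description.

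**Figure D3:**
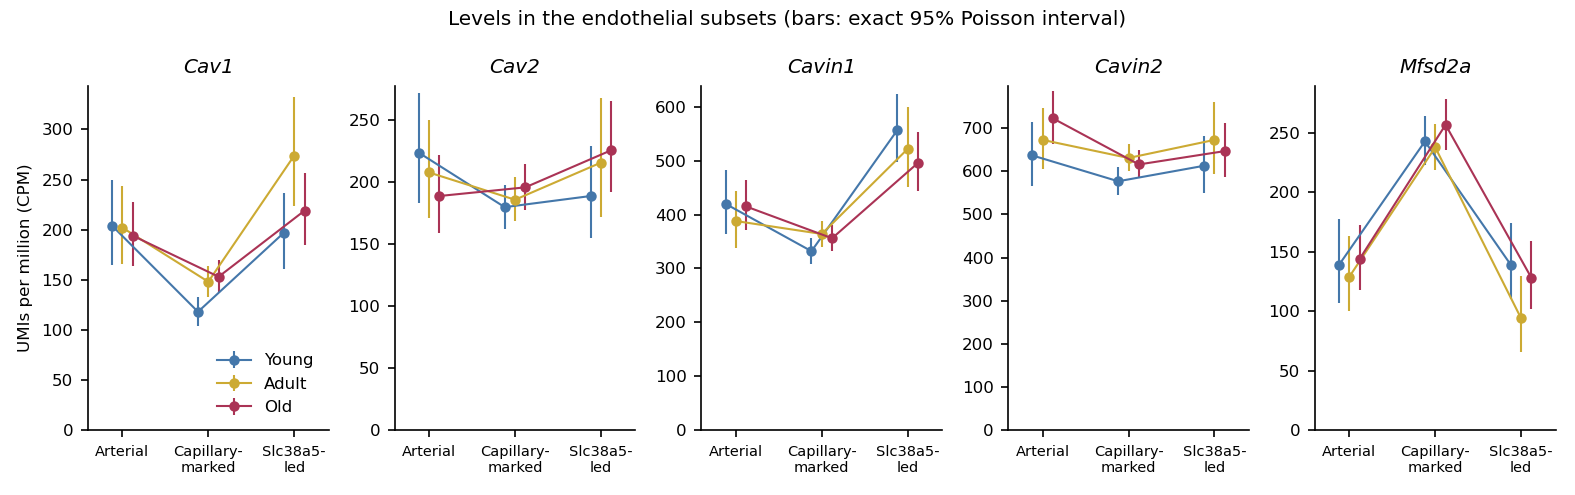
CPM of 5 genes on the y axis in arterial, capillary-marked and Slc38a5-led endothelial cells on the x axis, with a line per library and bars for the exact 95% Poisson interval. Mfsd2a peaks in the capillary-marked cells at 238 to 257 CPM in all 3 libraries, while Cav1 and Cavin1 are lowest there.

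Plvap in the endothelial cells came from very few cells. The 1274 arterial and other endothelial cells held 150 Plvap UMIs, and 143 of them, 95.3%, lay in 3 cells with 86, 47 and 10 UMIs. The first was a Young arterial-class cell, and the others were Adult cells of the other and the arterial class. Without those 3 cells the remaining 1271 held 7 Plvap UMIs, a level of 0.682 CPM. With both classes together, Plvap in the remaining cells was thus below its level in rods (3.35 CPM) and cones (6.02 CPM). This does not hold for arterial cells of the Old library, where no cell had 10 or more Plvap UMIs. They held 5 UMIs in 4 of 80 cells, at 6.59 CPM, while rods reached at most 6.53 CPM in a library. Whether these UMIs are background was not tested. In other endothelial cells the Young library had 0 UMIs in 394 cells, where the limit of 3 counts stood at 0.761% of cells. Gtpbp3, the overlapping gene, had 8.78 ± 0.516 CPM in other endothelial cells, above the Plvap level of the remaining cells.

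The 3 Plvap-rich cells had no Mfsd2a UMI and little of the barrier genes. Their summed Mfsd2a was 0 of 41015 UMIs (95% interval 0 to 89.9 CPM) against 209 CPM in the other endothelial and arterial cells together. Summed over these cells, Kdr, which codes for the main VEGF receptor, reached 2365 CPM against 418, and Emcn, an endothelial sialomucin, 2926 CPM against 411. The cells with 86, 47 and 10 Plvap UMIs held 46, 50 and 1 Kdr UMIs, and 82, 33 and 5 Emcn UMIs. Their depths were 19625, 14134 and 7256 UMIs. The 14 barrier genes, among them the tight junction gene Cldn5 and the glucose transporter gene Slc2a1, summed to 1390 CPM against 18367, 13.2 times lower. Cav1 was at 658 CPM (434 to 958) against 161, and Cavin1 at 341 CPM (187 to 573) against 388. In the same order of cells, Cav1 had 14, 1 and 12 UMIs and Cavin1 8, 0 and 6. The sums for Kdr, Cav1 and Cavin1 thus do not describe every cell. These cells were picked for their Plvap counts, so the other values describe them and are not a test, and they are given no cell type name.

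**Figure D4:**
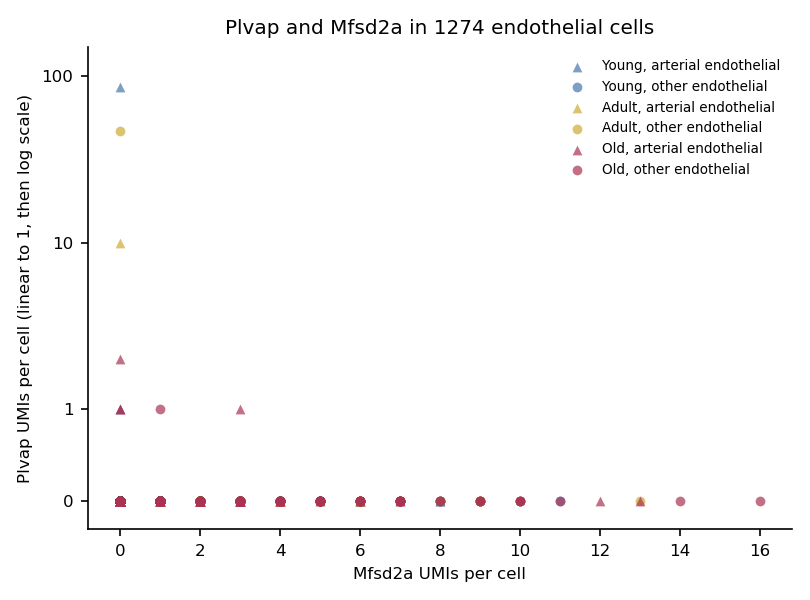
Plvap UMIs (y axis, linear to 1 and then a log scale) against Mfsd2a UMIs (x axis) in each of 1274 endothelial cells, with colour for the library, triangles for arterial and circles for other endothelial cells; many points overlap at 0. The 3 cells with 10, 47 and 86 Plvap UMIs all stand at 0 Mfsd2a UMIs.

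With age, Mfsd2a stayed near a ratio of 1 in the endothelium. In other endothelial cells the ratio of the Old to the Young library was 1.02 (0.917 to 1.14), and in arterial cells 1.03 (0.752 to 1.43). The Adult library gave 0.983 (0.878 to 1.10) and 0.925 (0.650 to 1.32) against Young. The arterial intervals are the wider ones, resting on 64 to 109 UMIs a library against 618 to 661. The arterial Old ratio was 0.677 with each cell classed by its own markers and 1.40 at 2000 UMIs per cell, so its direction is not set. The mixed endothelial and pericyte droplets gave 1.24 (1.10 to 1.40) in Old.

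The member with the largest ratio in other endothelial cells was Cav1, at 1.25 (1.09 to 1.44) in Old and 1.23 (1.07 to 1.42) in Adult over Young. Capillary-marked cells gave 1.29 (1.10 to 1.52) in Old. Arterial cells gave 0.948 (0.727 to 1.24), an interval that overlaps that of the other endothelial cells. Cav2 stood at 1.12 (0.991 to 1.26), Cavin1 at 1.03 (0.946 to 1.12) and Cavin2 at 1.07 (0.998 to 1.14) in Old over Young other endothelial cells. None of the 5 members with at least 50 UMIs passed 1.5-fold there, where 7.53% of 8461 genes did, and the median log2 of all genes was 0.03. Cav1 in rods was itself higher in the Old library, at 31.0 CPM from 19 UMIs against 8.34 from 4, while the Adult rods had 9.03 CPM. With the rod level of each library subtracted the ratio in other endothelial cells was 1.09. Of the 8 Müller glia markers, Glul, which endothelial cells also express, made up nearly all of the sum in other endothelial cells (623, 729 and 907 CPM), and the other 7 stood between 0 and 11.0 CPM each. Summed pericyte markers in other endothelial cells were 2167, 2232 and 1552 CPM. Their part in the Cav1 ratio was not tested.

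In arterial endothelial cells Plvap was the exception, 1 of 6 members past 1.5-fold where 10.8% of 3908 genes were. Its ratio of 0.0349 (0.0110 to 0.0845) in Old over Young rested on the cell with 86 UMIs. Without the richest cell of each library it was 1.79, and without all cells of 10 or more Plvap UMIs 2.90, from 5 UMIs in Old against 1 in Young. Over all endothelial cells Plvap was likewise 1 of 6 members past the fold, where 7.84% of 8992 genes were, and leaving out the richest cell of each library turned the ratio from 0.0615 to 3.56. The remaining members in arterial cells lay between 0.842 (Cav2, 0.649 to 1.10) and 1.13 (Cavin2, 0.982 to 1.31). Haemoglobin and other erythroid markers in the arterial class summed to 4.35, 29.4 and 4523 CPM in Young, Adult and Old, those of pericytes to 1407, 1238 and 514 CPM, and their part in these ratios was not tested.

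In Müller glia as a whole the caveolins had higher values in the older libraries. Cav1 was 1.3 (1.16 to 1.45) in Old and 1.14 (1.03 to 1.27) in Adult over Young, and Cav2 was 1.20 (1.05 to 1.38) and 1.15 (1.00 to 1.31). Cavin1 was 1.08 (0.727 to 1.61) in Old. At 2000 UMIs per cell 44.8% (37.2 to 52.5) of the Young Müller glia had a Cav1 UMI. The Adult share was 54.0% (46.8 to 61.1) and the Old share 55.4% (47.5 to 63.1), against 0.952%, 1.38% and 3.50% of rods. None of the 3 members tested passed 1.5-fold in Müller glia, where 8.73% of 7369 genes did. The larger cluster alone gave 1.31 (1.17 to 1.47) for Cav1 and 1.26 (1.10 to 1.45) for Cav2 in Old. The smaller gave 1.22 (0.787 to 1.90) for Cav1, while its Cav2 was lower, at 0.416 (0.143 to 1.08) from 7 against 15 UMIs.

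In the mural cells the low counts set wide limits. Cav1 in pericytes passed the fold with 2.2 (1.34 to 3.67) in Old over Young, from 44 UMIs in 19 of 103 cells against 28 in 17 of 170 cells, and the Adult ratio was 1.20 (0.678 to 2.13). It was 1 of 3 members tested in pericytes, where 11.9% of 3883 genes passed, and the highest single cell held 7 of the 44 UMIs. Rods had 31.0 CPM of Cav1 in Old and 8.34 CPM in Young. Over the alternatives, subtraction of the rod level among them, the pericyte ratio ran from 1.80 to 3.53. Cavin1 in pericytes was 1.39 (1.16 to 1.66). Pericytes also held endothelial markers, with sums of 1110, 1118 and 1377 CPM in Young, Adult and Old. Smooth muscle markers in them summed to 1401, 2613 and 2121 CPM and erythroid markers to 20, 40.8 and 387 CPM, and the part of all 3 in these ratios was not tested. In smooth muscle cells Cav1 was 0.953 (0.667 to 1.37), Cav2 1.22 (0.765 to 1.97) and Cavin1 0.977 (0.853 to 1.12) in Old over Young, so none of 3 members passed where 14.0% of 1975 genes did. Smooth muscle cells of the Adult library stood apart, with Cavin1 at 0.736 (0.634 to 0.854) and Cav2 at 1.59 (1.02 to 2.52) of Young. Thus 1 of 3 members passed where 11.1% of 1887 genes did. Endothelial markers in smooth muscle were also highest in Adult, at 182, 547 and 234 CPM, and pericyte markers were 9574, 9417 and 5205 CPM; their part was not tested. At 2000 UMIs per cell the Old ratio of Cav1 was 0.632.

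**Figure D5:**
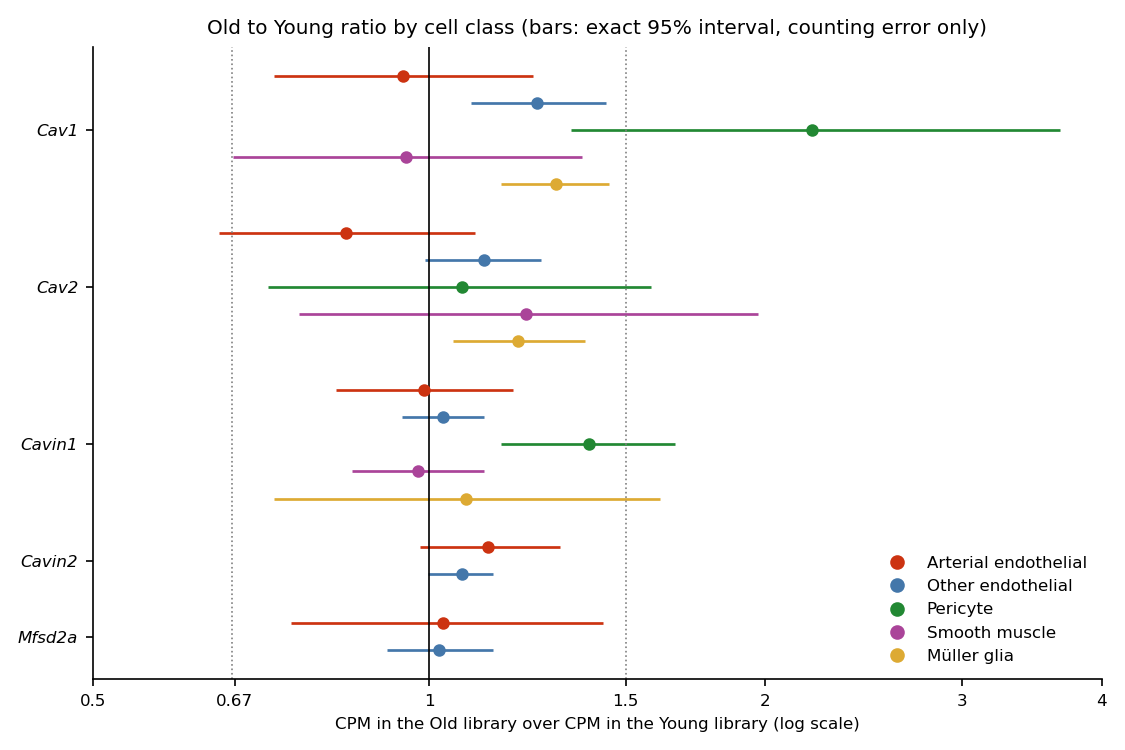
Ratio of CPM in the Old to the Young library (x axis, log scale) for 5 genes (y axis) in up to 5 cell classes, shown where a class had at least 50 UMIs over both libraries, with exact 95% intervals for counting error. Dotted lines mark 1.5-fold in either direction; the 1 point past them is Cav1 in pericytes, at 2.2.

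Genes of the other vesicle routes were read beside the members over all endothelial cells, where the median log2 of all genes in Old over Young was 0.03. Arterial cells made up 50 of these 444 cells in Young, 65 of 426 in Adult and 80 of 404 in Old. The part of this mix in the list ratios was not tested. The receptors and carriers of receptor-mediated transcytosis, the route by which ligands such as transferrin cross barrier endothelium, were all at or below 1: of 8 genes with enough UMIs in a list of 10, none was above 1 and 3 were past 1.5-fold lower, where 2.98% of 8992 genes were, with a median log2 of -0.35. Tfrc, the transferrin receptor gene, went from 258 CPM in Young to 236 in Adult and 138 in Old, a ratio of 0.533 (0.476 to 0.596). Insr, the insulin receptor gene, went from 168 to 147 and 109 CPM, a ratio of 0.653 (0.573 to 0.745), and Lrp1, a lipoprotein receptor gene, had 44 UMIs in Young and 23 in Old, a ratio of 0.466 (0.269 to 0.788). The smallest differences in this list were those of Lrp8, at 0.846, and Fcgrt, the neonatal Fc receptor gene, at 0.857. The coat and traffic genes stood near 1: all 12 clathrin coat and adaptor genes (0.832 for Ap2a1 to 1.18 for Ap2s1) and all 10 vesicle traffic genes (0.870 for Nsf to 1.16 for Rab11a) stayed within 1.5-fold, with medians of 0.02 and 0.01.

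Of the 20 caveola accessory genes 14 had enough UMIs in endothelial cells, 2 were past 1.5-fold higher, where 4.86% of 8992 genes were, none was past it lower, and the median log2 was 0.08. The 2 were Ehd1, an endocytic recycling ATPase gene, at 1.57 (1.21 to 2.05) and Flot2, which codes for a flotillin, at 1.53 (1.02 to 2.33), and the lowest were Src at 0.718 (0.425 to 1.20) and Fyn at 0.940. None of the 14 barrier endothelial genes passed the fold (median log2 -0.01), from Apcdd1, a Wnt target, at 0.709 (0.633 to 0.794) and Slc7a5, an amino acid carrier, at 0.789 to Cldn5 at 1.04 and Slc2a1, the glucose transporter, at 1.27 (1.22 to 1.33). Arterial against other endothelial means were 63.0 and 212 CPM for Apcdd1 and 126 and 424 CPM for Slc7a5. For Cldn5 they were 4339 and 5199 CPM, and for Slc2a1 1528 and 1280 CPM.

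In Müller glia 2 of 10 accessory genes tested were past the fold lower in Old, where 3.66% of 7369 genes were: Dnm2, a dynamin gene, at 0.571 (0.348 to 0.919) and Cavin3 at 0.585 (0.386 to 0.876), and the highest were Flot1 at 1.33 and Bin1 at 1.3. Of the receptor list 2 of 9 were past the fold lower, among them Cd36, a fatty acid carrier gene, at 0.578, while Insr (1.04) and Lrp1 (1.16) were highest. Napa, a vesicle fusion gene, at 1.98 (1.37 to 2.88) and Apcdd1 at 1.52 (0.853 to 2.76) were the genes past the fold higher in the traffic and barrier lists (1 of 10 and 1 of 6), where 5.06% of all genes were. No clathrin gene passed it, and their range ran from Epn1 at 0.882 to Ap2s1 at 1.20.

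Across 24 class-by-library values, from 8 classes in 3 libraries, the genes most like each member by Pearson's r of log2(CPM + 10) were sought among 10292 genes. The members themselves were left out of this ranking. The nearest to Cav1 were Cd9 (0.980), Adamts1 (0.976) and Inf2 (0.968), and to Cav2 Zfp36l1 (0.990) and Ier2 (0.985). The nearest to Cavin1 were Tns1 (0.989), Cnn2 (0.988) and Ccnd2 (0.985). Cavin2 was most like Kif26a (0.999), Tie1 (0.996) and Pecam1 (0.994), the last being an endothelial adhesion gene, and Mfsd2a was most like Zfp366 (0.992), Grrp1 (0.992) and Clic5 (0.991). For Plvap no gene came close, the first being Erlin1 (0.734), Kat6a (0.697) and Eif2ak4 (0.662). Among the members themselves r was 0.969 for Cav1 with Cav2 and 0.977 for Cavin2 with Mfsd2a, against 0.436 for Cav1 with Cavin2. These points share libraries and differ mostly by class, so r describes the class pattern and carries no p-value.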

How the data were processed

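The authors pooled retinas per age, enriched CD31-positive cells and made 10x 3′ libraries. Per the labels and the submitters' processing notes, reads were counted with Cell Ranger 6.1.2 on mm10, and the deposited matrices hold raw UMI counts, whole numbers with no normalization, for 32285 genes. The libraries held 16577026, 19977238 and 17021820 UMIs in 2491, 3243 and 2751 barcodes (Young, Adult, Old). The annotation release and strand setting were not given in the sources used here.

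From these counts, cells with 500 to 6000 genes and 1 to 20% mitochondrial UMIs were kept, and 7, 17 and 16 doublets called by Scrublet (in scanpy 1.11.5) were removed. Cells were clustered in Seurat 5.3.0 (R 4.3.3) on 2000 variable genes and 30 components at a resolution of 0.5, and at 1 for the subsets, leaving out the members, the gene lists and other listed genes, and named from at least 3 markers. Clusters that met markers of both endothelial cells and pericytes or erythroid cells were kept as mixed, and clusters whose median depth was below their library's divided by 3, with none of their markers among their top 10 genes, as low-depth. Counts were summed per class and library in Python 3.11.15 (numpy 2.4.6, pandas 2.3.3, scipy 1.17.1). With 1 library per age no test between ages exists, and p-values were not computed. Intervals are exact Poisson, exact conditional for ratios and Clopper-Pearson for shares, at 95%. A gene was compared between 2 libraries where their UMIs summed to at least 50, and 1.5-fold is a size limit, not a test. A count of 0 was given a limit of 3 counts. Shares of cells were compared after thinning to 2000 UMIs. SD is over the 3 libraries, which also differ in age. The ratio code was tested on simulated data. All 6 members were named, with the genes nearest in pattern and the extremes of each list. A few genes that this rule names are not reported here. Members and lists were chosen with earlier results of these data known. Alternatives covered thinning, marker purity, doublets, cell limits, free RNA, scaling, cell weights, classing, mixed droplets and single rich cells.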

Additional observations from a re-analysis of the deposited data

Results flagged for a closer look

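Some values outside the vascular and glial classes stood above the rod level of the same gene, with cells of all libraries pooled. Plvap was at 57.8 CPM (35.3 to 89.3) in amacrine cells, with a UMI in 15 of 50 cells (30%), and at 12.8 CPM (9.15 to 17.4) in bipolar cells, in 37 of 450 (8.22%), against 3.35 CPM in rods. At 2000 UMIs per cell the shares were 11.6% of amacrine cells, 2.51% of bipolar cells and 0.430% of rods. Unlike in endothelium, these UMIs were spread over cells, with 20 UMIs in the 15 amacrine cells. The strand of the counting and the overlap with Gtpbp3 apply here as well. Gtpbp3 had 3 UMIs in amacrine cells, in 4.0% of cells, and 17 in bipolar cells, in 3.78%. Its part in the Plvap counts was not tested.

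In retinal pigment epithelium cells, 54 of 62 from the Old library, Cavin2 was at 173 CPM (129 to 227; 27 cells, rods 1.44) and Mfsd2a at 43.3 CPM (23.1 to 74.1; 11 cells, rods 0.957). A cluster of 37 cells led by crystallin genes, found only in the Adult library and given no name, had Cavin1 at 89.0 CPM, Cavin2 at 141 CPM and Mfsd2a at 24.7 CPM, with no UMI of Cav1 or Cav2 (upper limit of the 95% interval 4.56 CPM). Rods had 5.74 CPM of Cavin1.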

How the results depend on the processing

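Of 60 recomputed age ratios in other endothelial cells 58 moved by less than their counting interval, and of 221 in the other classes 208 did. With the rod level subtracted, Cav1 in other endothelial cells was 1.09, and with each cell classed by its own markers Cavin2 there was 1.15. Plvap turned from lower to higher in Old over all endothelial cells, at 3.56 without the richest cell of each library and 5.31 without cells of 10 or more Plvap UMIs, and in arterial cells at 1.79 and 2.90; the removed cells are shown above. Cav1 in pericytes ranged from 1.80 to 3.53 and passed 1.5-fold in 9 of 9 alternatives. The arterial to other endothelial log2 ratio moved by more than its SD over libraries in 12 of 45 recomputations. At 2000 UMIs per cell it was 0.28 for Cavin1, -0.04 for Cavin2 and -1.08 for Mfsd2a. As a mean of single-cell CPM it was 0.64 for Cav1, 0.27 for Cavin1 and -1.05 for Mfsd2a. With cells classed by their own markers it was -0.09 for Cavin1, 0.25 for Cavin2 and -0.86 for Mfsd2a. Without cells carrying markers of another class Mfsd2a gave -0.79, and without the Slc38a5-led cells Mfsd2a gave -0.84 and Cavin1 0.22, the last alternatives being chosen after seeing the data, as were those on cells rich in Plvap and on the smaller Müller glia cluster. The cause was not tested for any of these. Leaving out each library in turn gave 0.25 to 0.45 for Cav1 and -0.72 to -0.67 for Mfsd2a. Keeping the members among the clustering genes moved none of 13 levels beyond its spread. No paired analysis was possible because each age has 1 library, all numbered 1. Depth limits Cav1 in pericytes, with 26 to 44 UMIs a library, and Cav2 in smooth muscle, with 33 to 57.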

Other observations

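Cavin2 in microglia of the Adult library came from very few cells, with 52 UMIs in 3 of 30 cells, 31 of them in a single cell, against 0 UMIs in 9 Young and 1 UMI in 14 Old microglia.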
